A study of Homo sapiens with 8 samples.

Results

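The nuclear genes of the mitochondrial respiratory chain were followed in MCF10A-Hras cells, a non-tumorigenic human breast epithelial line transformed with H-Ras. Genes were taken from the count table by name: protein-coding symbols beginning NDUFA, NDUFB, NDUFC, NDUFS, NDUFV, UQCR, COX4, COX5, COX6, COX7, COX8, ATP5F, ATP5M or ATP5P. This rule found 93 of 58233 rows, and no measured value entered it. They comprised 37 complex I subunits, 8 complex I assembly factors named NDUFAF, 9 complex III genes, 19 complex IV genes, 18 complex V genes and 2 readthrough loci that join a subunit to its neighbour. Poly(A) RNA was sequenced from control cells (genotype WT) and from RBM6-KO cells, the KO1 clone made with a Cas9 nickase aimed at RBM6 exon 3. Each genotype was either untreated or collected 12 h after 5 Gy of X-ray ionizing radiation (IR), with 2 biological replicates, A and B, in each of the 4 groups. All 8 libraries carry the H-Ras oncogene, and RBM6-KO is a single clone, so an effect of RBM6 loss and a property of that clone cannot be told apart. The series was made to ask how loss of RBM6, an RNA-binding splicing regulator, alters expression with and without DNA damage.

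The respiratory chain passes electrons from NADH and succinate to oxygen and uses the proton gradient to make ATP. Complex I (NADH dehydrogenase) feeds electrons to ubiquinone, complex III (cytochrome bc1) passes them to cytochrome c, complex IV (cytochrome c oxidase) reduces oxygen, and complex V (ATP synthase) turns the gradient into ATP. A few core subunits come from mitochondrial DNA, while most subunits are nuclear-encoded, translated in the cytosol and imported. Several complex IV subunits exist as ubiquitous and tissue-restricted isoforms, such as COX6B1 and its testis isoform COX6B2.

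The libraries held between 15355281 and 29832009 gene counts. RBM6 itself had 66.9 and 68.8 CPM (gene counts put on a common library size with TMM factors) in untreated control and 61.5 and 63.2 in untreated RBM6-KO libraries. It had 54.5 and 48.9 in irradiated control and 44.01 and 33.9 in irradiated RBM6-KO libraries. Its difference between genotypes did not pass the test untreated (log2 fold change -0.14, SE 0.15, edgeR adjusted p = 0.712) or after IR (-0.40, SE 0.20, edgeR adjusted p = 0.535). After IR against untreated it lay at -0.40 in control cells (SE 0.17, edgeR adjusted p = 0.17). In RBM6-KO cells it passed as lower (-0.69, SE 0.17, edgeR adjusted p = 0.0498), as 3.23% of all genes did. Counts over the whole gene cannot show a small lesion in an exon, so these values do not check the label at the protein level. All 10 basal epithelial markers reached 1 CPM, with sums of 10570 to 16250 CPM per library, whereas immune markers summed to at most 0.294 CPM, with CD3E and HBB at 0 in every library. Fibroblast markers summed to 81.0 to 107 CPM in control and 119 to 211 CPM in RBM6-KO libraries, carried by COL1A1 and DCN. Luminal epithelial markers, 4 of 7 of which reached 1 CPM, summed to 717 and 770 CPM in untreated control and 449 and 566 in untreated RBM6-KO libraries, and to 648 and 464 against 435 and 359 after IR. The part of these markers in the results below was not tested.

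Promoter sequences were read as a property that the name rule did not use. RefSeq windows (GRCh38.p14, 250 bases before to 50 after the start, 300 in all) matched 75 of the 93 genes. Among those not matched were ATP5F1B, ATP5F1D, ATP5MC3, ATP5MF, ATP5MF-PTCD1, ATP5MGL, COX4I2, COX6C, COX7A1, NDUFA4, NDUFAF6, NDUFB5, NDUFB9, NDUFC2, NDUFS5, UQCRB and UQCRHL. The RefSeq start of NDUFA5 lay 43747 bases before the gene as GENCODE gives it, and no other start lay more than 1000 bases outside its gene. Motif cores of 4 factors known to act on respiratory genes were searched on both strands. The NRF1 core GCGCATGC stood in 13 of 75 windows (17.3%), against 3.27% of all 27305 RefSeq windows and 4.26% of the 15842 protein-coding ones. The ETS core CCGGAAG, bound by GABPA, stood in 19 windows (25.3%, against 14.2% of protein-coding windows). The YY1 core AAGATGGC stood in 10 (13.3%, against 3.91%) and the ESRRA core AAGGTCA in 7, the NDUFA5 window among them (9.33%, against 3.13%). At least 1 core stood in 36 windows (48.0%, against 22.9% of protein-coding windows), so most windows held none. By complex, the share ran from 28.6% for assembly factors (2 of 7 windows) to 76.9% for complex V (10 of 13). The stretches below lie just before the start and are printed 5′ to 3′ up to the nearest annotated exon, with cores in capitals. COX6B2 and COX6B1 are shown because the genotypes differed in the former and not detectably in the latter, and COX5B because it holds an NRF1 and an ETS core. COX6B2 lies at chr19:55354720-55354907 (minus strand), COX6B1 at chr19:35648073-35648322 (plus) and COX5B at chr2:97645812-97646061 (plus). A readthrough transcript from the neighbouring locus also spans the COX6B2 stretch.
COX6B2: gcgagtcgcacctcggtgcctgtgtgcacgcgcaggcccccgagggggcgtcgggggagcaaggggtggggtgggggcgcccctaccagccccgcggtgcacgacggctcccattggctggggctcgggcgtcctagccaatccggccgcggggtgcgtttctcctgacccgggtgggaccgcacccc
COX6B1: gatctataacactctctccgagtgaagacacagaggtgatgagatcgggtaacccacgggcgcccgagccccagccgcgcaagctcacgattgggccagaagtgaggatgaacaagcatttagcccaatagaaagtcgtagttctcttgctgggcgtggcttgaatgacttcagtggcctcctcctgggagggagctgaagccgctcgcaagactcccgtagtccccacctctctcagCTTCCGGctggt
COX5B: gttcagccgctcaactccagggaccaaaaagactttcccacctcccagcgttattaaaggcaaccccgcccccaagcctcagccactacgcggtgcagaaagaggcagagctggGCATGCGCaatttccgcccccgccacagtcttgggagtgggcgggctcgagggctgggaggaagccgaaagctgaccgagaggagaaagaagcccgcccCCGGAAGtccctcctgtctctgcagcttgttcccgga
The COX6B1 stretch ends close to an ETS core on the reverse strand, whereas the COX6B2 stretch holds none of the 4 cores. A core is a match of letters only, and no binding was measured here.

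Most of the genes were strongly expressed. Of the 84 genes with enough counts to be tested across all 8 libraries, 76 averaged at least 10 CPM and 32 at least 100 CPM, and their median of 81.3 CPM stood at the 85.7th percentile of the 16549 genes tested. Levels between genes were compared as CPM per kilobase of the annotated canonical transcript. In untreated control cells the highest levels per kilobase were COX4I1 in complex IV (530 ± 29.2, SD, n = 2), ATP5F1B in complex V (518 ± 7.51), NDUFS5 in complex I (431 ± 7.33), UQCRH in complex III (368 ± 9.28) and NDUFAF2 among the assembly factors (91.5 ± 7.75). COX4I1 and ATP5F1B differed by less than the spread between replicates. ATP5F1B is the catalytic beta subunit of ATP synthase, and COX4I1 is a ubiquitous regulatory subunit of cytochrome oxidase. The median level per kilobase was 118 in complex V, 72.5 in complex I, 69.3 in complex IV, 66.3 in complex III and 14.3 among the assembly factors. A few canonical transcripts are listed with very long 3′ ends (NDUFS1 at 11660 bases, NDUFA9 at 8356 and UQCRB at 8459), which lowers their level per kilobase.

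**Figure D1:**
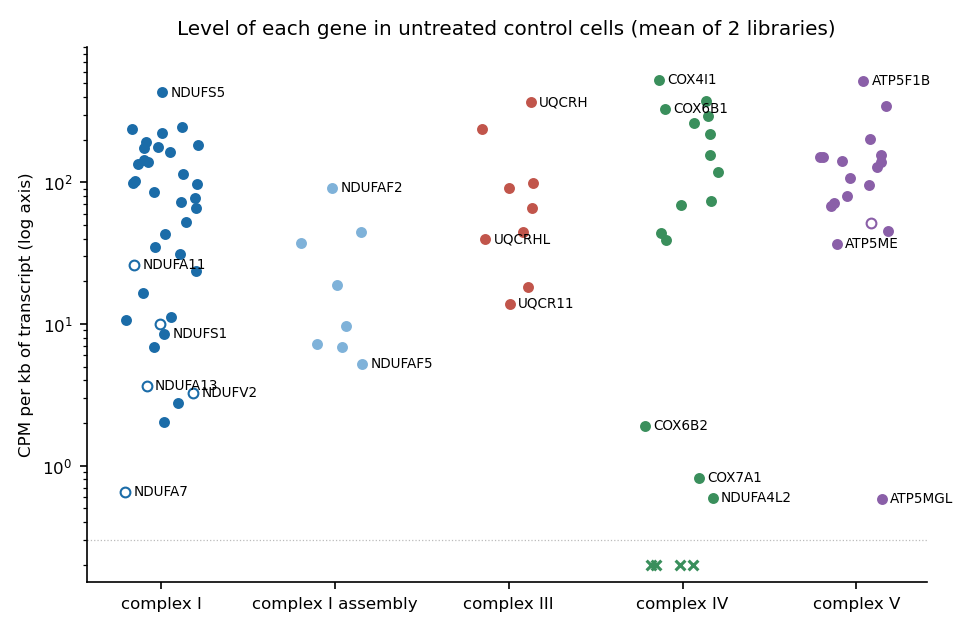
Level per kilobase of transcript (CPM per kb, log axis) of each gene in untreated control cells, as the mean of 2 libraries, by complex. Open circles are genes with at least 50% of the transcript inside exons of another locus on the same strand, and crosses below the dotted line are genes at 0; COX4I1, ATP5F1B and NDUFS5 stood highest.

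Tissue-restricted isoforms were low or absent. COX4I2, COX6A2, COX7B2 and the readthrough NDUFC2-KCTD14 had 0 counts in every library, which allows up to 0.195 CPM in the shallowest library by counting error alone (3 counts). COX8C, another testis isoform, had 4 counts in all 8 libraries together, and ATP5MF-PTCD1 had 3. COX7A1, the muscle isoform of COX7A, ran at 0.187% to 0.511% of COX7A2 per kilobase in 7 libraries and had 0 counts in RBM6-KO after IR replicate B. NDUFA4L2, a hypoxia-responsive relative of NDUFA4, ran at 0.179% to 1.13% of NDUFA4 per kilobase. Among the 3 genes that encode the same c subunit of ATP synthase, ATP5MC1 ran at 40.9% to 47.6% and ATP5MC3 at 24.2% to 34.2% of ATP5MC2. UQCRHL, a near-identical copy of UQCRH, was listed at 9.15% to 11.7% of UQCRH, and reads of these copies may have been split between them.

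Some low values coincided with annotation. NDUFV2 (90.0% of its canonical transcript), NDUFA13 (83.9%), NDUFA7 (77.9%), NDUFB8 (72.0%), NDUFA11 (68.2%) and ATP5PO (63.8%) lay at least 50% inside exons of another locus on the same strand. These 6 genes had a median of 6.86 CPM per kilobase in untreated control cells, against 16.4 for the 9 genes with 10% to 50% shared and 87.8 for the 76 genes with less. The overlapping locus had 0 counts in every library for 5 of the 6, and between 2 and 16 counts for NDUFA13. How the counting treated reads in shared exons is not given in the sources used here, so the levels of these genes are uncertain. NDUFV2 encodes an iron-sulfur core subunit of complex I, yet was listed at only 2.95 and 2.63 CPM in untreated control libraries, whereas its partner NDUFV1 had 243 and 265 CPM.

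Loss of RBM6 left the nuclear respiratory chain genes near their control levels in untreated cells. Of 83 genes tested, 43 lay above and 40 below control, and the median log2 fold change was 0.006, beside 0.007 over all 15556 genes tested. No gene passed as higher (2.38% of all genes did) and 1 passed as lower (3.73% of all genes did) in edgeR's quasi-likelihood test at an adjusted p under 0.05. That gene was COX6B2. For 80 of the 83 the 95% interval of the difference lay within 2-fold, so larger changes were outside the intervals of these genes. The exceptions were COX6B2 itself and the weakly counted NDUFV2 and NDUFA13.

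COX6B2 (ENSG00000160471, chr19:55349306-55354719, minus strand, hg38) encodes the testis isoform of the subunit that bridges cytochrome oxidase dimers. It had 32 and 75 counts in untreated control libraries and 24 and 43 in irradiated control libraries. It had 7 and 3 counts in untreated RBM6-KO libraries and 3 and 4 in irradiated ones, so the genotypes did not overlap in either state. In CPM these were 1.96 and 4.02, 1.55 and 1.38, 0.394 and 0.204, and 0.155 and 0.196, in the same order. Over all genes, both RBM6-KO libraries lay below both control libraries for 3717 of 15556 untreated and 3154 of 15587 after IR. For COX6B2 the log2 fold change of RBM6-KO against control was -3.28 (SE 0.54, edgeR adjusted p = 0.000953) untreated and -3.01 (SE 0.51, edgeR adjusted p = 0.0440) after IR. Its counts were under 10 in every RBM6-KO library, so it entered both tests only through its control libraries. With at least 10 counts required in every library it was not tested. Pooled over replicates, 10 counts stood against 107 untreated, a ratio of 0.101 of the control rate (exact 95% interval 0.0469 to 0.192, counting error only). After IR 7 counts stood against 67, a ratio of 0.122 (0.0473 to 0.266). The gene thus fell in both states, from a level that was at most 0.792% of COX6B1 per kilobase.

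The ubiquitous COX6B1 (ENSG00000126267, chr19:35648323-35658782, plus strand) had 161 and 158 CPM in untreated control and 138 and 189 in untreated RBM6-KO libraries. After IR it had 149 and 107 CPM in control and 152 and 122 in RBM6-KO libraries, and the genotypes overlapped in both states. Its log2 fold change was 0.02 untreated (95% interval -0.31 to 0.34) and 0.11 after IR (-0.37 to 0.59). Neighbours of COX6B2 within 200000 bases did not pass the test. Untreated 15 were tested, 12 of them below 0, with a median of -0.09 and a range from -1.02 to 1.36. After IR 16 were tested, 9 of them below 0, with a median of -0.10 and a range from -1.03 to 0.94. The nearest, KMT5C, lay at -0.47 untreated (edgeR adjusted p = 0.210) and -0.63 after IR (edgeR adjusted p = 0.352). In the annotation, 29.9% of the COX6B2 transcript lies in exons of a readthrough locus that had 0 counts in all libraries.

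**Figure D2:**
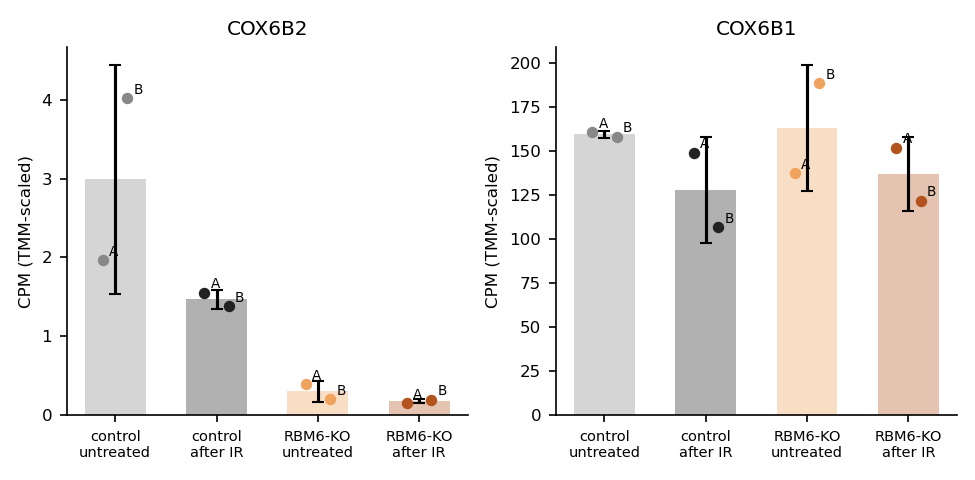
TMM-scaled CPM of COX6B2 (left) and COX6B1 (right) in the 4 groups, with bars at the mean, error bars of 1 SD (n = 2) and points for replicates A and B. All 4 RBM6-KO libraries lie below 0.4 CPM for COX6B2 and all 4 control libraries above 1.3 CPM, while the COX6B1 points overlap between genotypes.

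Core subunits showed how small the other differences were. UQCRC1, a core protein of complex III, had 370 and 383 CPM in untreated control and 318 and 391 in untreated RBM6-KO libraries (log2 fold change -0.10, SE 0.14). COX5A had 170 and 194 CPM against 166 and 185 (-0.06, SE 0.14). ATP5F1B had 920 and 902 CPM against 901 and 915 (-0.02, SE 0.13). In each of these the groups overlapped or lay apart by less than their spread. By unadjusted p the next gene after COX6B2 was NDUFB2, an accessory subunit of complex I, at 0.35 (SE 0.18, edgeR adjusted p = 0.297). Its 2 untreated RBM6-KO libraries lay at 48.5 and 70.7 CPM and its control libraries at 45.1 and 47.0 CPM, so the difference rested mostly on replicate B.

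After IR the comparison of genotypes gave the same single call. Of 85 genes tested, 56 lay above and 29 below irradiated control, with a median log2 fold change of 0.06 beside 0.02 over all 15587 genes tested. No gene passed as higher (0.372% of all genes did), and COX6B2 alone passed as lower (0.84% of all genes did). Without RBM6-KO after IR replicate B, COX6B2 no longer passed and none of the genes did. For 80 of the 85 the 95% interval lay within 2-fold. NDUFA13, an accessory subunit also known as GRIM19, had the next smallest p (log2 fold change -0.96, SE 0.44, edgeR adjusted p = 0.491), from 10 and 18 counts against 21 and 43. The genotype comparisons before and after IR use different libraries. Across the 82 genes other than COX6B2 tested in both, Pearson's r of their log2 fold changes was 0.62 and 56 had the same sign. No value over all genes stands beside these, and both comparisons concern the same clone.

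**Figure D3:**
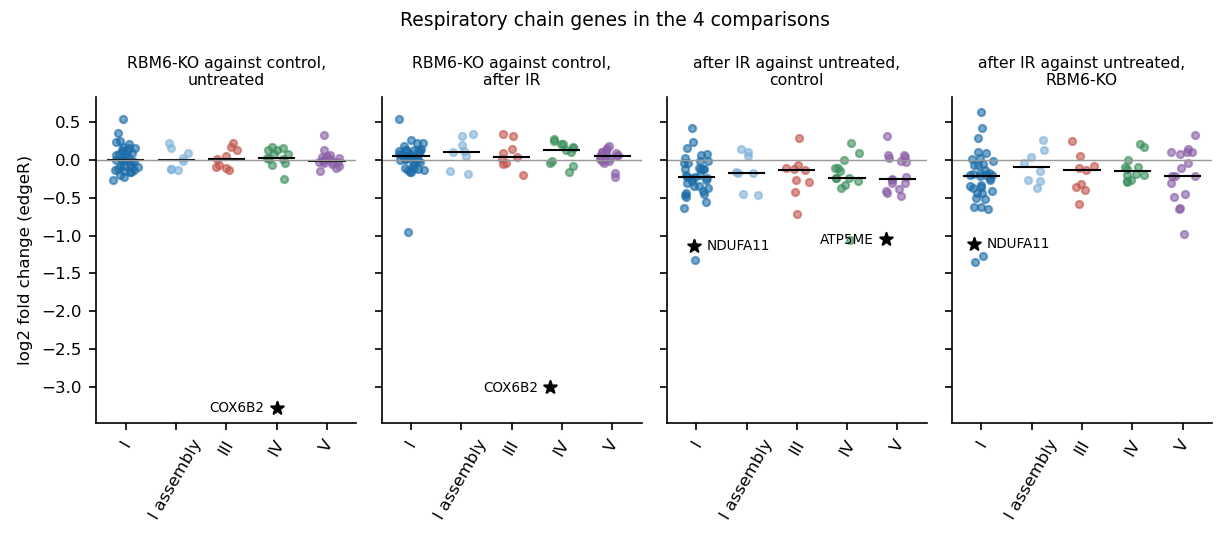
Log2 fold changes (edgeR, vertical axis) of the tested genes by complex in the 4 comparisons, with black lines at the median and stars for an adjusted p under 0.05. COX6B2 is the only star in both genotype comparisons, NDUFA11 is starred after IR in both genotypes and ATP5ME in control cells, and the medians after IR lie below 0 in every complex.

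After IR most of the genes lay slightly below their untreated level in both genotypes, but this shift depended on single libraries. The median was at 0 to 2 decimals without control after IR replicate B in control cells and without RBM6-KO untreated replicate B in RBM6-KO cells. In control cells 65 of 83 tested genes lay below 0 and 18 above, with a median log2 fold change of -0.23 beside 0.02 over all 15412 genes tested. In RBM6-KO cells 61 of 82 lay below 0, with a median of -0.20 beside -0.01 over all 15598 genes. No gene passed as higher in either genotype, where 2.81% of all genes did in control and 2.44% in RBM6-KO cells. NDUFA11 and ATP5ME passed as lower in control cells (2.91% of all genes did), and NDUFA11 passed in RBM6-KO cells (3.23% of all genes did). The counts of genes that passed were therefore near or under the share over all genes. At an unadjusted edgeR p under 0.05 there were 9 of 83 genes in control cells (1 higher, 8 lower), beside 3918 of all 15412 genes (2009 higher, 1909 lower). In RBM6-KO cells there were 17 of 82 (3 higher, 14 lower), beside 4613 of all 15598 genes (2310 higher, 2303 lower). The responses of the genotypes, which share no library, had a Pearson's r of 0.91 over 82 genes, and 75 had the same sign. No value over all genes stands beside these, and genes do not count as replicates. Over all 16549 genes, the difference of B from A correlated at 0.35 between the irradiated groups.

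NDUFA11 (ENSG00000174886, chr19:5891276-5904006, minus strand) is an accessory subunit of the complex I membrane arm. It had 13.5 and 16.5 CPM in untreated and 8.42 and 5.50 in irradiated control libraries, and 12.0 and 16.3 against 7.95 and 5.34 in RBM6-KO libraries. All 4 irradiated libraries lay below all 4 untreated ones. Within each genotype alone, 4263 of all 15412 genes in control and 4606 of 15598 in RBM6-KO cells lay lower without overlap. The log2 fold change of NDUFA11 was -1.13 (SE 0.27, edgeR adjusted p = 0.0356) in control and -1.11 (SE 0.26, edgeR adjusted p = 0.0437) in RBM6-KO cells. As given above, 68.2% of its transcript is shared with another locus.

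ATP5ME (ENSG00000169020, chr4:672436-674330, minus strand) encodes subunit e, which helps ATP synthase dimers form. It had 10.7 and 11.6 CPM in untreated and 6.47 and 4.51 in irradiated control libraries, and 9.29 and 12.7 against 7.17 and 4.07 in RBM6-KO libraries. The irradiated and untreated libraries again did not overlap. Its log2 fold change was -1.05 (SE 0.27, edgeR adjusted p = 0.0434) in control and -0.98 (SE 0.30, edgeR adjusted p = 0.0734) in RBM6-KO cells, where it did not pass. On the opposite strand, exons of MYL5 cover 39.6% of its transcript, and the strand setting of the counting is not given in the sources used here.

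The core subunits of complex I did not move as a block after IR. NDUFS1, the largest iron-sulfur subunit, had 103 and 95.9 CPM in untreated and 119 and 149 in irradiated control libraries. In RBM6-KO libraries it had 97.9 and 73.5 CPM untreated and 120 and 149 after IR, so every irradiated library lay above every untreated one. Its log2 fold change of 0.42 in control (edgeR adjusted p = 0.149) and 0.63 in RBM6-KO cells (edgeR adjusted p = 0.0697) did not pass. Within each genotype alone, 4537 of all 15412 genes in control and 5078 of 15598 in RBM6-KO cells lay higher without overlap. NDUFS8, an iron-sulfur subunit near the ubiquinone site, lay on the other side of 0. It had 169 and 190 CPM in untreated and 150 and 96.8 in irradiated control libraries, and 161 and 244 against 156 and 111 in RBM6-KO libraries. Its log2 fold changes were -0.55 (edgeR adjusted p = 0.124) and -0.62 (edgeR adjusted p = 0.110). NDUFS7 lay at -0.63 and -0.64, NDUFV1 at -0.28 and -0.33 and NDUFS3 at -0.23 and -0.19, in control and RBM6-KO cells, and none passed. NDUFV2 had the lowest values, -1.32 (edgeR adjusted p = 0.0693) and -1.34 (edgeR adjusted p = 0.0678), from 48 and 49 counts against 11 and 44 in control and 88 and 46 against 41 and 23 in RBM6-KO cells.

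In the other complexes, too, values lay on both sides of 0. UQCRC2, a core protein of complex III, had 187 and 193 CPM in untreated and 239 and 227 in irradiated control libraries, and 199 and 188 against 232 and 233 in RBM6-KO libraries (log2 fold changes 0.29 and 0.25). ATP5PB, the b subunit of the ATP synthase stalk, had 188 and 170 CPM against 235 and 212 in control and 178 and 177 against 225 and 227 in RBM6-KO libraries (0.31 and 0.33). Every irradiated library lay above every untreated one for both, yet neither passed. Such separation within a genotype was common over all genes, as given above. In the F1 part of ATP synthase, the head subunits ATP5F1A and ATP5F1B lay at 0.07 and 0.11 and at 0.04 and 0.14. Of the central stalk subunits, ATP5F1C lay at 0.02 and 0.11, ATP5F1D at -0.47 and -0.64 and ATP5F1E at -0.41 and -0.46, and none passed. COX4I1 lay at -0.37 and -0.29, UQCR11 at -0.72 and -0.58 and the Rieske protein UQCRFS1 at -0.13 and -0.08. By complex, the medians in control and RBM6-KO cells were -0.23 and -0.21 for complex I, -0.17 and -0.09 for its assembly factors, -0.13 and -0.13 for complex III, -0.24 and -0.15 for complex IV and -0.25 and -0.21 for complex V.

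The downward shift after IR was uneven across libraries and across transcript lengths, and its cause was not tested. Relative to the mean of all 8 libraries on the log2 scale, the median over the 84 genes was -0.34 in control after IR replicate B and -0.19 in RBM6-KO after IR replicate B. In the replicate A libraries after IR it was 0.11 and 0.07, at the level of the untreated control libraries (0.05 and 0.13), while untreated RBM6-KO libraries lay at -0.07 and 0.26. Control after IR replicate B was the lowest of the 8 libraries for 56 of the 84 genes, and RBM6-KO untreated replicate B the highest for 45. Summed over all 93 genes, the irradiated control libraries had 9771 and 7606 CPM beside 9248 and 9670 untreated, and the irradiated RBM6-KO libraries had 9627 and 8427 CPM beside 8726 and 10485. The groups overlapped in both genotypes. Without control after IR replicate B the median in control cells was -0.00073, whereas without replicate A it was -0.44. In RBM6-KO cells the median was -0.03 without irradiated replicate B and -0.33 without irradiated replicate A. It was 0.002 without untreated replicate B and -0.31 without untreated replicate A. Calls changed with the library left out, and their counts are not given because each such fit left a single library in a group. In control cells ATP5ME lost its call without control after IR replicate B and without either untreated library, and NDUFA11 lost it without untreated replicate B, where no gene passed. In RBM6-KO cells NDUFA11 lost its call without irradiated replicate B and without untreated replicate B.

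**Figure D4:**
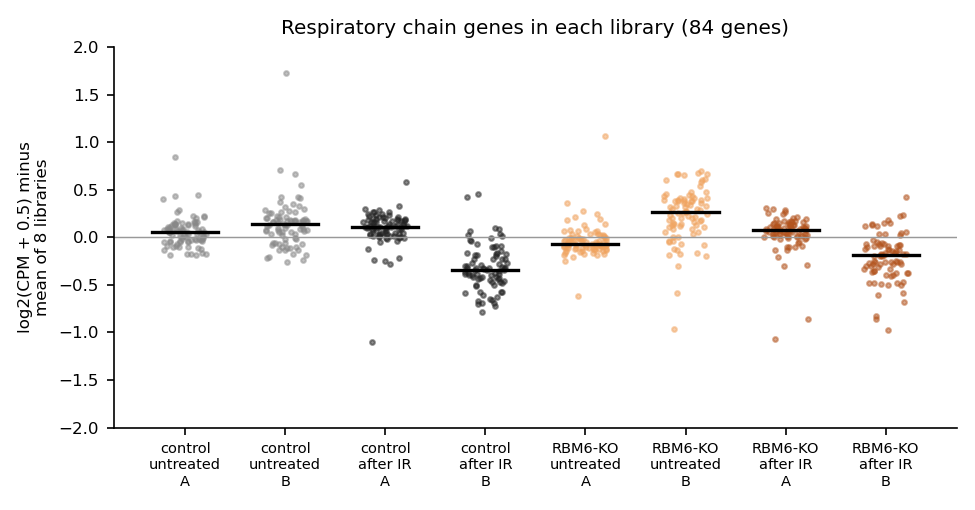
Difference of each of 84 genes from its mean over the 8 libraries, on the log2(CPM + 0.5) scale, with black lines at the median of each library. The replicate B libraries after IR lie lowest in both genotypes, at -0.34 and -0.19, and RBM6-KO untreated replicate B lies highest at 0.26.

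The genes are short: 50 of 84 (59.5%) have a canonical transcript of at most 1000 bases, against 5.54% of all 12773 protein-coding genes tested, and their median length was 781 bases against 3364. Short protein-coding transcripts as a class had a median below 0 after IR. In control cells 49 respiratory chain genes of at most 1000 bases had a median log2 fold change of -0.26, and all 672 protein-coding genes of that length had -0.29. In RBM6-KO cells the same values were -0.24 over 49 genes and -0.27 over 663. Above 1000 bases the medians were -0.08 over 34 respiratory chain genes and 0.08 over 11733 protein-coding genes in control, and -0.04 over 33 and 0.08 over 11726 in RBM6-KO cells. As a description across genes of the same libraries, which do not count as replicates, log2 fold change after IR correlated with length over all genes (Spearman's rho 0.36 in control, 0.32 in RBM6-KO) and over the respiratory chain genes (0.30 and 0.33). With GC content rho was -0.26 and -0.23 over all genes and -0.45 and -0.47 over the respiratory chain genes. Replicates of 1 group differed along similar properties. B against A correlated with exon length (all exons of a gene merged) at 0.37 in control and 0.32 in RBM6-KO cells after IR. In untreated cells this was -0.17 and -0.21. For GC content the correlations of B against A were -0.39 and -0.22 after IR, and 0.39 and 0.16 in untreated cells. RNA quality was not among the values given, and neither its part nor that of length in the shift was tested. With a trend in GC content, merged exon length and expression removed, the medians after IR stayed below 0, as given in the last section. That length is not the canonical transcript length used above, and the removal was not a test of either.

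Genes with shared exons lay lower after IR as well. The 5 tested respiratory chain genes with at least 50% of the transcript shared were all below 0, with medians of -0.49 in control and -1.11 in RBM6-KO cells. Over all protein-coding genes with that much sharing, 222 of 335 (66.3%) lay below 0 in control, with a median of -0.24, and 237 of 334 (71.0%) in RBM6-KO cells, with a median of -0.34. NDUFA11 and NDUFV2, with 2 of the lowest values, belong to this group.

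The response to IR was not detectably different between the genotypes. Over all 8 libraries the difference of the responses passed for 0.0% of 16549 genes in edgeR at an adjusted p under 0.05, and 306 of them had an unadjusted p under 0.05. Of the 84 respiratory chain genes tested, none passed and none had an unadjusted p under 0.05, and DESeq2 gave 0 calls as well. The median difference was 0.03 beside -0.01 over all genes. For 75 genes the 95% interval lay within 2-fold. NDUFB5 had the smallest p, with a difference of 0.27 (95% interval -0.14 to 0.69). It had 70.7 and 67.4 CPM in untreated and 79.1 and 76.2 in irradiated control libraries, and 65.4 and 58.8 against 83.4 and 85.6 in RBM6-KO libraries.

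Partners of these genes were read from lists of related genes. Of the 8 genes of complex II and its assembly, none passed between genotypes. In irradiated RBM6-KO cells SDHC and SDHD, the membrane anchors of succinate dehydrogenase, rose by 0.59 (SE 0.15) and 0.63 (SE 0.16) on the log2 scale, each at an edgeR adjusted p of 0.0488, among the 2.44% of all genes that passed as higher. SDHC had 84.5 and 78.0 CPM untreated and 121 and 127 after IR, and SDHD had 40.3 and 45.1 against 65.0 and 68.3. In control cells SDHC lay at 0.47 (edgeR adjusted p = 0.0955), from 98.3 and 93.9 to 129 and 138 CPM, and SDHD at 0.23 (edgeR adjusted p = 0.417). The difference between the genotypes passed for neither gene (edgeR adjusted p = 1.0). The 13 mitochondrially encoded subunits all lay above control in untreated RBM6-KO cells, with a median of 0.32, but none passed. Of them 6 had an unadjusted edgeR p under 0.05, all higher, beside 2867 of all 15556 genes, 1364 of them higher. Their summed CPM was 74743 and 73412 in untreated control and 83785 and 96190 in untreated RBM6-KO libraries. After IR all 13 again lay above control, with a median of 0.25. None of the 13 then had an unadjusted edgeR p under 0.05, beside 1731 of all 15587 genes. Cytochrome c (CYCS) and cytochrome c1 (CYC1) did not pass in any comparison. Of the assembly factors outside the name rule, 50 or 51 of 52 were tested in each comparison and none passed, and none of the 78 mitochondrial ribosomal protein genes did. Those ribosomal genes had medians of -0.10 and -0.19 after IR in control and RBM6-KO cells. The RNA stability factors LRPPRC, SLIRP and CLUH did not pass either.

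Of 17 transcriptional regulators of respiratory genes, 16 were tested, and 2 passed, both higher after IR in RBM6-KO cells. In that comparison 2.44% of all 15598 genes tested passed as higher. HIF1A, the hypoxia-inducible factor, rose by 0.89 (SE 0.20, edgeR adjusted p = 0.0376), from 357 and 281 CPM to 497 and 701. MYC rose by 0.77 (SE 0.17, edgeR adjusted p = 0.0377), from 224 and 189 CPM to 314 and 396. In control cells HIF1A lay at 0.39 (edgeR adjusted p = 0.377) and MYC at 0.47 (edgeR adjusted p = 0.105). The difference of the IR responses did not pass for either gene (edgeR adjusted p = 1.0). In RBM6-KO against control, HIF1A lay at 0.55 untreated (edgeR adjusted p = 0.115) and 1.08 after IR (edgeR adjusted p = 0.163). MYC lay at -0.44 untreated (edgeR adjusted p = 0.0814) and -0.12 after IR (edgeR adjusted p = 0.92), and neither gene passed. NRF1 lay at -0.41 and -0.40, GABPA at 0.03 and 0.52 and ESRRA at 0.09 and 0.05 after IR in control and RBM6-KO cells, and none of these passed.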

How the data were processed

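Poly(A) RNA (TruSeq mRNA kit, 150-base paired-end reads) was sequenced from 8 libraries, 2 per group. The deposited values are gene counts, which the authors made from reads aligned to hg38, and the submitters' processing notes name STAR and DESeq2 without versions. The counting tool, annotation and strand setting are not given in the sources used here. Genes were named by GENCODE release 44, which held 57392 of 58233 identifiers. The 93 genes, the lists and the motifs were chosen with earlier results of these data known.

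Counts were fitted with edgeR 4.0.16 (TMM, filterByExpr, quasi-likelihood test), each comparison on its own 4 libraries and the difference of IR responses on all 8. P-values were adjusted by the Benjamini-Hochberg method over all genes tested, and an adjusted p under 0.05 passed. Named were genes that passed, the 3 smallest p in each direction per comparison, core subunits, isoform pairs and the extremes of level per kilobase. ATP5F1D, ATP5F1E, NDUFA9, NDUFB8, NDUFB9 and related genes that did not pass were named after their values were seen. 1 subunit is not reported here by name. The fit was tested on simulated counts. Alternatives were DESeq2 1.42.0, other scalings and filters, a replicate block, a trend removal and leaving out each library. Replicates were labelled as biological, and with 2 libraries per group p-values rest on variance shared across genes. An exact permutation test of 2 against 2 could not reach 0.05, so summed levels were given without a test. With a floor of 3 counts, library totals allowed 0.101 to 0.195 CPM for a count of 0.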

Additional observations from a re-analysis of the deposited data

How the results depend on the processing

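In leaving out each library in turn, counts of genes passing ranged from 1 to 3 for RBM6-KO against control untreated, from 0 to 1 after IR, from 0 to 39 for IR in control and from 0 to 16 for IR in RBM6-KO cells. The medians ranged from -0.13 to 0.15, from -0.15 to 0.27, from -0.44 to -0.00073 and from -0.33 to 0.002, and from -0.15 to 0.26 for the difference of responses. A single library of a group was then assumed to vary like the others. Without RBM6-KO untreated replicate A, NDUFB2 and NDUFB9 passed as higher beside COX6B2.

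With at least 10 counts required in every library, COX6B2 was not tested and 0 genes passed in either genotype comparison. With no filter 4 genes passed for IR in control and 8 in RBM6-KO cells. With all 8 libraries in 1 fit 0 passed for IR in either genotype. DESeq2's Wald test gave 3 for IR in RBM6-KO cells (NDUFS1 higher, NDUFA11 and ATP5ME lower). With a replicate block 4 genes passed after IR between genotypes (COX7C, NDUFA4 and UQCRB higher) and 3 for IR in RBM6-KO cells. The letters were not taken as a pairing, since deviations of like letters correlated between -0.28 and 0.35 over the 6 pairs of groups. The cause was not tested, apart from the genes that the filter removed or added. With a trend in GC content, merged exon length and expression removed, the medians after IR were -0.14 in control and -0.15 in RBM6-KO cells. No gene that passed changed sign under an alternative, whereas the medians between genotypes, for IR in RBM6-KO cells and of the difference of responses did, as their ranges show. With 2 libraries per group, changes under 2-fold were often within the error.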
